A study of Homo sapiens with 8 samples.

Results

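The aminoacyl-tRNA synthetases are the enzymes that load each tRNA with its amino acid. They were followed here as 36 genes, 20 for cytosolic and 16 for mitochondrial enzymes, of the 18132 genes that could be named from single-symbol probe sets. Members were all probe sets annotated with exactly 1 symbol equal to a synthetase on the list, which gave 91 of the 49395 probe sets on the array. The cells were of the established human lung carcinoma line H1299, transfected with short hairpin RNA. USF1 knockdown cells were measured on 3 arrays beside 3 arrays of their own controls, and UGT1A3 knockdown cells on 1 array beside 1 control array. USF1 is a transcription factor that binds E-box sequences, and UGT1A3 conjugates glucuronic acid to lipophilic compounds. The hairpin sequences, the time after transfection and the number of clones were not given in the labels. Whether replicates were grown as separate cultures is not stated either, and the p-values therefore reflect only how far these samples spread, which may be technical.

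Each synthetase activates its amino acid with ATP and transfers it to the matching tRNA, so that the ribosome reads the genetic code correctly. Human cells keep a cytosolic set and a separate mitochondrial set, all encoded in the nucleus, while GARS1 and KARS1 each supply both compartments. Several cytosolic enzymes are held in a multi-synthetase complex with scaffold proteins. When amino acids run short, uncharged tRNA activates the kinase GCN2, and the transcription factor ATF4 then raises amino acid transporters, synthesis enzymes and many cytosolic synthetases.

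USF1 itself fell by 0.40 on the log2 scale after its knockdown and kept 75.6% of its control level (SE 0.08, limma adjusted p = 0.00818). Its probe set was dim, with means of log2 6.43 in the controls and 6.03 after knockdown, both under the array medians. Signal over background therefore limits this percentage as a measure of the remaining USF1 RNA. The array medians were log2 6.53 to 6.55 in the USF1 set and 5.596 and 5.63 in the UGT1A3 set, so changes were formed only within a set, always as knockdown minus control. The epithelial keratins KRT8 and KRT18 and the mesenchymal filament VIM were bright. EPCAM, CDH1, KRT19, the leukocyte marker PTPRC and the fibroblast marker COL1A1 were dimmer than log2 5.63, the brightness a gene needed to be tested. A second leukocyte marker, CD68, was bright, at log2 9.46 in the USF1 controls against 9.07 for KRT8. The lung markers NKX2-1 (6.40) and SFTPC (6.57) also passed that limit. So did the fibroblast marker PDGFRB (5.90) and, narrowly, the endothelial markers PECAM1 and VWF (5.64 each). Among the 9 identity markers tested, KRT8 rose by 0.25 (adjusted p = 0.00197) and none of the other 8 passed. In bulk RNA, fewer cells of a kind and less RNA per cell cannot be told apart.

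Most synthetases fell after USF1 knockdown. Of the 20 cytosolic enzymes, 17 fell, 1 rose and 2 did not pass an adjusted p of 0.05, and of the 16 mitochondrial enzymes 9 fell, 2 rose and 5 did not pass. All 36 were bright enough to be tested. Across the 11448 tested genes 40.7% passed, 18.7% downward and 22.0% upward. The median change was -0.20 for the cytosolic enzymes and -0.16 for the mitochondrial ones, beside 0.01 over all genes. Falls of at least 0.32 on the log2 scale that also passed an adjusted p of 0.05 were seen in 4 cytosolic and 4 mitochondrial enzymes. Of all tested genes, 4.73% met both limits. The changes were small and regular: in 17 cytosolic and 9 mitochondrial enzymes every knockdown array lay below every control, a pattern that 24.6% of all genes showed. Every knockdown array lay above every control in 2 cytosolic and 2 mitochondrial enzymes and in 29.0% of all genes. Centred on each gene's control mean, the median over the cytosolic enzymes was -0.19, -0.20 and -0.23 on the 3 knockdown arrays, and between -0.005 and 0.009 on the controls. For the mitochondrial enzymes it was -0.18, -0.13 and -0.23 on the knockdown arrays and ran from -0.03 to 0.03 on the controls. The mitochondrial set was thus the more scattered, and it was also mostly dimmer. Its control means ran from log2 6.96 (PARS2) to 10.92 (RARS2), most no higher than the 8.91 of NARS2. Apart from TARS3 (7.60), cytosolic control means ran from 9.74 (CARS1) to 13.11 (KARS1). How far the counts and the scatter follow brightness was not tested. Without USF1 control 3 or without USF1 knockdown 1, 7 mitochondrial enzymes passed in place of 11, 6 downward and 1 upward.

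**Figure D1:**
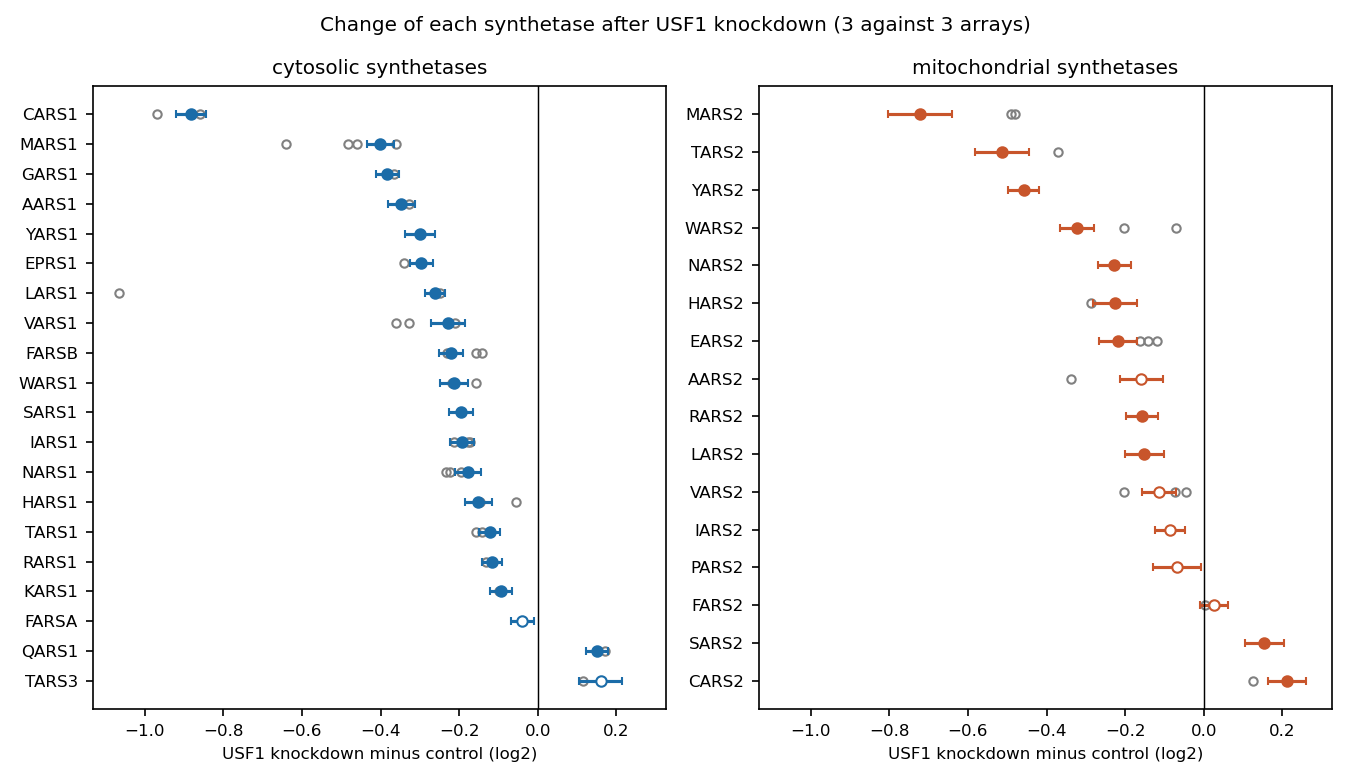
Change of each synthetase after USF1 knockdown (x axis, knockdown minus control in log2 units), with cytosolic enzymes on the left and mitochondrial ones on the right. Coloured points are the probe set that stands for the gene, with its SE (3 arrays against 3), filled where the adjusted p was under 0.05, and open grey circles are the gene's other bright probe sets; most points lie left of 0, from -0.88 for CARS1, and 1 LARS1 probe set stands apart at -1.07.

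The cysteinyl enzyme CARS1 fell most. It read log2 9.74, 9.79 and 9.70 on the control arrays and 8.90, 8.88 and 8.80 after the knockdown. All 3 knockdown arrays thus lay well under the controls, at 54.3% of the control level (change -0.88, SE 0.04, adjusted p = 3.31e-05). This change ranked 34 from the lowest among the 11448. The other CARS1 probe sets gave -0.97 and -0.86, so the fall was seen on all 3.

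Next among the free cytosolic enzymes came GARS1, AARS1 and YARS1. GARS1, which charges glycine tRNA in both compartments, read log2 12.55, 12.60 and 12.61 on the control arrays and 12.21, 12.22 and 12.19 on the knockdown arrays (change -0.38, SE 0.03, adjusted p = 1.96e-04). AARS1, the alanyl enzyme, read 10.66, 10.71 and 10.62 against 10.31, 10.35 and 10.30 (change -0.35, adjusted p = 4.67e-04). The tyrosyl enzyme YARS1 read 10.75, 10.83 and 10.74 against 10.43, 10.49 and 10.50 (change -0.30, adjusted p = 0.00118), and its only probe set is of the type whose probes can match transcripts of other genes. In all 3 the control and knockdown arrays were clearly apart, at 76.7%, 78.6% and 81.2% of the control level. Smaller falls were seen in the valyl enzyme VARS1 (-0.23), the tryptophanyl enzyme WARS1 (-0.21), the seryl enzyme SARS1 (-0.19), the asparaginyl enzyme NARS1 (-0.18), the histidyl enzyme HARS1 (-0.15) and the threonyl enzyme TARS1 (-0.12). Their adjusted p-values ran from 0.0027 for SARS1 to 0.0118 for HARS1. Of the 3 bright HARS1 probe sets, the weakest gave -0.05 and did not pass (limma adjusted p = 0.236 over all probe sets).

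Phenylalanyl-tRNA synthetase is built from an alpha subunit, FARSA, and a beta subunit, FARSB. FARSB read log2 10.49, 10.51 and 10.49 on the control arrays and 10.32, 10.25 and 10.26 on the knockdown arrays, a fall of 0.22 (SE 0.03, adjusted p = 0.00169) that its 4 bright probe sets shared, from -0.23 to -0.14. FARSA differed by -0.04 (SE 0.03, adjusted p = 0.329), with overlapping arrays. The difference between the subunits, formed within each array, shifted by -0.18 (two-sided exact permutation p = 0.1, the smallest that 3 against 3 arrays allow). TARS3, a second cytosolic threonyl enzyme, went the other way: its knockdown arrays, at 7.71 to 7.82, all lay above its controls, at 7.50 to 7.68, but the change of 0.16 did not pass (adjusted p = 0.0548, or 0.0385 without USF1 control 2). For TARS3 the call also passed under 6 other settings, with a higher dim limit among them.

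Of the 7 members of the multi-synthetase complex on the list, 6 fell and 1 rose, with a median change of -0.19 beside -0.21 for the 13 cytosolic enzymes outside it. The methionyl enzyme MARS1 fell most of these. It read log2 11.10, 11.12 and 11.06 on the control arrays and 10.71, 10.73 and 10.64 on the knockdown arrays (change -0.40, SE 0.03, adjusted p = 3.12e-04). All 5 MARS1 probe sets fell, from -0.64 to -0.36. EPRS1, a fused enzyme for glutamate and proline, fell by 0.30 (adjusted p = 4.37e-04), the isoleucyl enzyme IARS1 by 0.19 (adjusted p = 0.00272) and the arginyl enzyme RARS1 by 0.12 (adjusted p = 0.0098). QARS1, the glutaminyl enzyme, was the only cytosolic member that rose: it read 11.15, 11.13 and 11.17 on the control arrays and 11.32, 11.30 and 11.28 on the knockdown arrays (change 0.15, SE 0.03, adjusted p = 0.00529), and its second probe set gave 0.17. All QARS1 knockdown arrays lay above the controls, against the direction of the other complex members. The lysyl enzyme KARS1 had the smallest fall that passed (-0.09, adjusted p = 0.0332). That KARS1 call held without USF1 knockdown 2 and was lost without any other single array, with adjusted p-values of 0.104, 0.0758 and 0.0801 without controls 1, 2 and 3 and 0.0814 and 0.0848 without knockdowns 1 and 3.

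LARS1, the leucyl enzyme and amino acid sensor of the complex, had probe sets that disagreed in size. The brightest read log2 12.47, 12.46 and 12.47 on the control arrays and 12.22, 12.19 and 12.21 on the knockdown arrays (change -0.26, SE 0.03, adjusted p = 4.93e-04), and a second gave -0.25. The remaining probe set read 9.30, 9.31 and 9.33 on the control arrays and 8.18, 8.32 and 8.23 on the knockdown arrays, a change of -1.07 (SE 0.04, adjusted p = 2.66e-05 over all probe sets). All 3 LARS1 probe sets fell, but this one by far more. It fell by 0.82 more than the probe set that fell least, and this gap separated the groups (exact permutation p = 0.1, the smallest possible). These 2 probe sets were picked as the lowest and highest change on the same arrays, so this p is no independent evidence that they differ. Over all synthetases, 47 of 53 bright cytosolic probe sets fell and 2 rose, and 15 of 31 mitochondrial ones fell and 1 rose, when each probe set was tested on its own. In that test 17.6% of all probe sets fell and 20.0% rose. In each of the 26 members with at least 2 bright probe sets these agreed in sign, and the median range between them was 0.07.

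**Figure D2:**
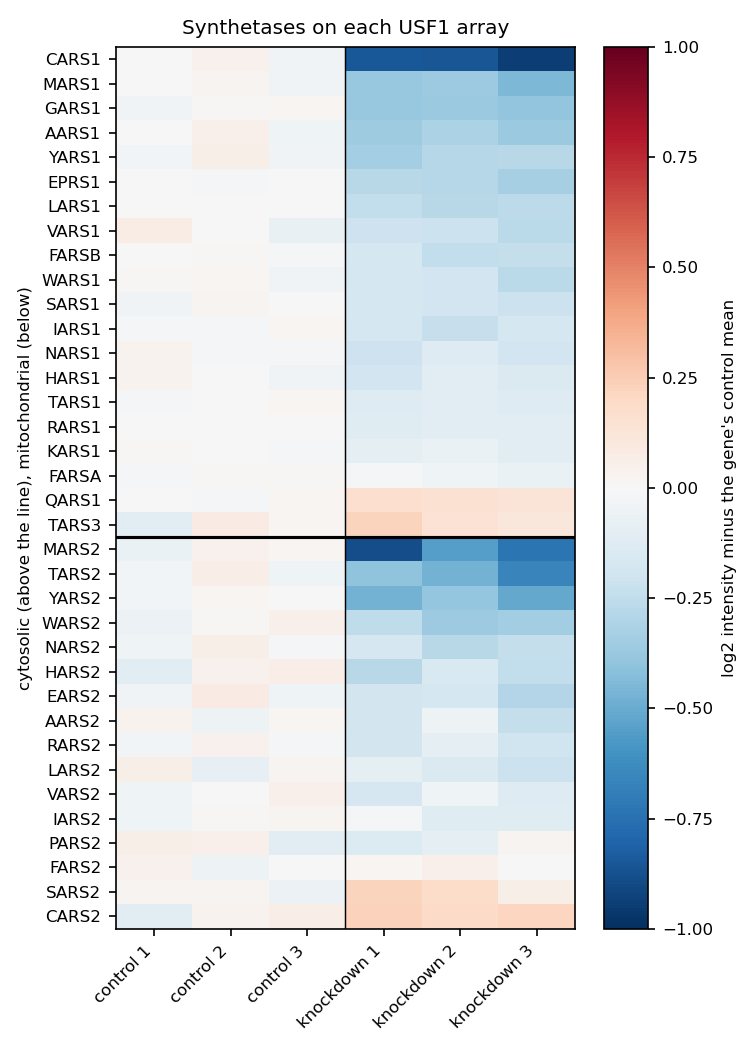
Log2 intensity of each synthetase minus its control mean (colour scale) on the 6 USF1 arrays (columns), with cytosolic enzymes above the black line and mitochondrial ones below, each ordered by change. The knockdown columns are blue for most rows, darkest for CARS1 and MARS2, and red for QARS1, TARS3, SARS2 and CARS2.

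Among the mitochondrial enzymes the methionyl enzyme MARS2 fell most. It read log2 8.82, 8.92 and 8.91 on the control arrays and 7.998, 8.33 and 8.15 on the knockdown arrays, to 60.6% of the control level (change -0.72, SE 0.08, adjusted p = 7.91e-04). Its knockdown arrays spread widely but stayed far under the controls, and its other 2 probe sets gave -0.49 and -0.48. The threonyl enzyme TARS2 read 8.73, 8.82 and 8.71 against 8.35, 8.28 and 8.09 (change -0.51, SE 0.07, adjusted p = 0.00159). YARS2, the tyrosyl enzyme, read 9.85, 9.89 and 9.88 against 9.40, 9.49 and 9.36 (change -0.46, SE 0.04, adjusted p = 3.17e-04). For TARS2 and YARS2 too the groups were well apart, at 70.1% and 72.8% of the control level. The tryptophanyl enzyme WARS2 fell by 0.32 (adjusted p = 0.00145), although its bright probe sets ran from -0.32 to -0.07 and the weakest did not pass. The asparaginyl enzyme NARS2 fell by 0.23 (adjusted p = 0.00562).

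The other mitochondrial calls lay nearer the threshold. The histidyl enzyme HARS2 fell by 0.23 (adjusted p = 0.0178), and the call was lost without USF1 control 2 or 3 or knockdown 1 (0.0626, 0.0618 and 0.0628). The glutamyl enzyme EARS2 fell by 0.22 (adjusted p = 0.0119) on a probe set whose probes can match other genes. Without such probe sets EARS2 differed by -0.14 (adjusted p = 0.0917). The arginyl enzyme RARS2 fell by 0.16 (adjusted p = 0.0201), which did not hold without control 2 or 3 (0.0678 and 0.0516) or knockdown 1 or 3 (0.0665 and 0.0535). The leucyl enzyme LARS2 fell by 0.15 (adjusted p = 0.047), and this call survived the loss of control 2 alone, with 0.142 and 0.131 without controls 1 and 3 and 0.0515, 0.0814 and 0.114 without knockdowns 1, 2 and 3. Isoleucyl, prolyl, valyl, alanyl and phenylalanyl enzymes did not pass: IARS2 (-0.09), PARS2 (-0.07), VARS2 (-0.11), AARS2 (-0.16, adjusted p = 0.0534) and FARS2 (0.03). Without knockdown 2, AARS2 passed at -0.21 (adjusted p = 0.01) and VARS2 at -0.15 (adjusted p = 0.0306). AARS2 also passed under 6 other settings and VARS2 under 3. Tested on its own, the other bright AARS2 probe set fell by 0.34 (limma adjusted p = 0.00709 over all probe sets). Of the 4 bright VARS2 probe sets 1 passed in that test, at -0.20 (adjusted p = 0.0158). With the mean of all probe sets PARS2 passed at -0.15 (adjusted p = 0.0436), and with an intensity trend in the variance IARS2 passed (adjusted p = 0.0288).

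The mitochondrial cysteinyl and seryl enzymes rose. CARS2 read log2 8.25, 8.39 and 8.42 on the control arrays and 8.58, 8.54 and 8.57 on the knockdown arrays, all above the controls (change 0.21, SE 0.05, adjusted p = 0.0128). Its other bright probe set gave 0.12 with overlapping arrays and did not pass (limma adjusted p = 0.266 over all probe sets). SARS2 read 7.84, 7.84 and 7.76 against 8.03, 7.999 and 7.87 (change 0.15, SE 0.05, adjusted p = 0.0462). The SARS2 groups did not overlap, but its call held only when knockdown 3 was the array left out, with adjusted p-values of 0.0817, 0.0816 and 0.14 without controls 1, 2 and 3 and 0.132 and 0.107 without knockdowns 1 and 2.

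Enzymes for the same amino acid were then compared across compartments in 17 pairs. EPRS1 was set against both EARS2 and PARS2, and FARS2 against both cytosolic subunits. TARS3, the second cytosolic threonyl enzyme, was not entered in a pair. It changed by 0.16, against -0.51 for TARS2, so threonine is represented by TARS1 alone. The cytosolic-minus-mitochondrial difference was formed within each array and compared between knockdown and control. It shifted down with no overlap of arrays in 6 pairs, up in 4 and overlapped in 7, so neither compartment led throughout. Among single tested genes, 24.6% lay wholly below and 29.0% wholly above their controls, so arrays without overlap were common. The share over pairs of other genes was not computed. The median shift was -0.08. Cysteine gave the widest gap, where CARS1 fell and CARS2 rose (shift -1.09), followed among the downward shifts by SARS1/SARS2 (-0.35) and FARSB/FARS2 (-0.25). The shift was upward, toward a lower mitochondrial enzyme, for threonine (TARS1/TARS2, 0.39), methionine (MARS1/MARS2, 0.32), tyrosine (0.16) and tryptophan (0.11). Each of these 10 shifts gave a two-sided exact permutation p of 0.1 and 0.17 after Benjamini-Hochberg adjustment over the 17 pairs. Since 0.1 is the smallest unadjusted p that 3 against 3 arrays allow, no pair could pass 0.05.

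**Figure D3:**
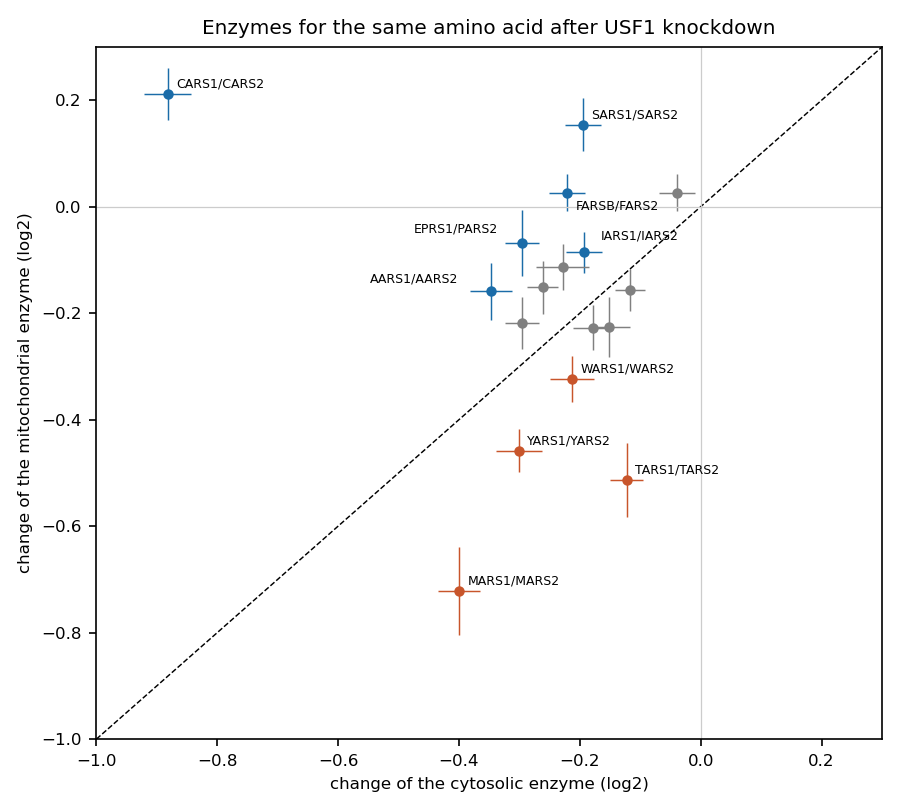
Change of the cytosolic enzyme (x axis) against that of the mitochondrial enzyme for the same amino acid (y axis), both as USF1 knockdown minus control in log2 units with SE bars, for 17 pairs. On the dashed line both changed equally; blue pairs shifted toward a lower cytosolic enzyme and orange pairs toward a lower mitochondrial enzyme with no overlap between arrays, and grey pairs overlapped, with CARS1/CARS2 farthest from the line.

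Promoter sequence was examined because the synthetases moved together and because USF1 and ATF4 bind known motifs. RefSeq windows (GRCh38.p14) from 250 bases before to 50 after the start were found for 30 of the 36 members. They were searched on both strands for the ATF4 and C/EBP composite element, TGATGNAA, and for the E-box CACGTG. The composite element occurred in 7 of 16 matched cytosolic genes and 1 of 14 mitochondrial ones, beside 3.62% of all 35116 windows and 2.65% of tested genes with a window. Its mitochondrial match lay in YARS2. Below are the 7 cytosolic matches with 11 flanking bases on each side, read 5′ to 3′ on the strand of the gene, with the element or its reverse complement in capitals. In CARS1, IARS1, MARS1 and TARS1 it lay within 13 bases of the start.
AARS1, chr16:70289675-70289704, minus strand: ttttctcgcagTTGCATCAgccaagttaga
CARS1, chr11:3057407-3057436, minus strand: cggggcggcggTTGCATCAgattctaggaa
GARS1, chr7:30594834-30594863, plus strand: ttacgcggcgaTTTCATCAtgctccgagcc
IARS1, chr9:92293692-92293721, minus strand: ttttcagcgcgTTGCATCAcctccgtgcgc
MARS1, chr12:57488053-57488082, plus strand: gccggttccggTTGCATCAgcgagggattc
NARS1, chr18:57621804-57621833, minus strand: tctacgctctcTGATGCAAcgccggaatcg
TARS1, chr5:33440956-33440985, plus strand: gcgcctttcgaTTGCATCAgctggtccagc

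The 7 cytosolic genes with this element had changes from -0.88 to -0.12 with a median of -0.35, and the 9 without it from -0.30 to 0.15 with a median of -0.15. The 3 largest cytosolic falls, in CARS1, MARS1 and GARS1, were all in genes with a match, while TARS1 fell little with one. Of all 250 tested genes with a match in their window, 27.2% fell and 18.0% rose, beside 18.7% and 22.6% of the 9443 tested genes with a window. A match is a description of letters and not of binding.

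The E-box, the motif that USF1 binds, occurred in IARS1 and in 3 of 14 mitochondrial genes, MARS2, CARS2 and EARS2, beside 7.26% of all windows and 13.0% of tested genes with a window. Changes in these genes went both ways, at -0.19, -0.72, 0.21 and -0.22 in turn. Of the 1224 tested genes with an E-box, 22.6% fell and 23.4% rose, beside 18.7% and 22.6% of the 9443 tested genes with a window. The 250 bases before the start are shown for IARS1, which held both motifs, and for MARS2, the mitochondrial gene that fell most, with the motifs in capitals (E-box CACGTG, composite element TTGCATCA).
IARS1, chr9:92293698-92293947, minus strand: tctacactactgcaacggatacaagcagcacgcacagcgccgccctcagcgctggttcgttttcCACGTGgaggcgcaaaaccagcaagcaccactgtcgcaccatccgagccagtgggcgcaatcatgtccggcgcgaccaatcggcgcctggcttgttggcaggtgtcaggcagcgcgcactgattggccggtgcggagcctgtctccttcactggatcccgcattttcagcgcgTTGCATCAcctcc
MARS2, chr2:197705119-197705368, plus strand: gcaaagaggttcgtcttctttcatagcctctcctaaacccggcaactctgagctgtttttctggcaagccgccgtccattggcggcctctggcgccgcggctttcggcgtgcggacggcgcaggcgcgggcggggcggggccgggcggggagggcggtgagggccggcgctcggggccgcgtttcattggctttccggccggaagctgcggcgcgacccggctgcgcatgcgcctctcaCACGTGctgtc

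Around the synthetases, other genes of tRNA charging and use were counted from a list. Of the complex scaffolds only AIMP1 was measured, and it differed by less than 0.01 on its brightest probe set (adjusted p = 0.929), while its bright probe sets ran from -0.39 to 0.004. Beside 18.7% down and 22.0% up over all tested genes, 1 of 4 helpers of mitochondrial charging fell and none rose. This was QRSL1, a subunit of the amidotransferase that makes mitochondrial glutaminyl-tRNA, which read log2 10.04, 10.09 and 9.99 on the control arrays and 9.07, 9.11 and 9.05 on the knockdown arrays (change -0.96, SE 0.04, adjusted p = 2.14e-05). Its bright probe sets ran from -0.96 to -0.37, and the partner subunits GATB (0.09) and GATC (0.07) did not pass. TRNT1, which adds the CCA end to tRNA, fell by 0.23 (adjusted p = 9.27e-04, or 0.0519 on the probe set left when probes that can match other genes were excluded). XPOT, which exports tRNA from the nucleus, fell by 0.18 (adjusted p = 0.00713), and the deacylase DTD2 by 0.14 (adjusted p = 0.0113).

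Translation elongation factors moved less evenly. Of 3 measured mitochondrial factors GFM1 fell by 0.29 (adjusted p = 4.56e-04) and TUFM by 0.15 (adjusted p = 0.00647). Of 6 cytosolic factors EEF1A2 rose by 0.23 (adjusted p = 8.87e-04), EEF1G rose by 0.10 (adjusted p = 0.0211) and EEF1A1 fell by 0.12 (adjusted p = 0.045). The EEF1G call was lost without control 1 or 3 or knockdown 2 (0.06, 0.0756 and 0.0568). The EEF1A1 call held only without knockdown 3 among single omissions (0.136, 0.0897 and 0.0613 without controls 1 to 3, and 0.127 and 0.0949 without knockdowns 1 and 2), and its bright probe sets ran from -0.36 to 0.12. In the list for uncharged tRNA sensing and the ATF4 response, 7 of 10 fell and none rose, with a median of -0.30. Over all tested genes 18.7% fell and 22.0% rose, with a median of 0.01. ATF4 read log2 12.86, 12.92 and 12.90 on the control arrays and 12.61, 12.60 and 12.59 on the knockdown arrays (change -0.29, adjusted p = 4.61e-04). The ATF4 probe set is of the type whose probes can match transcripts of other genes. ASNS, which makes asparagine, fell by 0.91 and CHAC1, a glutathione-degrading enzyme, by 0.87, close to the fall of CARS1. ATF3 fell by 0.48 (adjusted p = 1.42e-04), although its bright probe sets ran from -0.48 to -0.05. The part of ATF4 in the synthetase changes was not tested.

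In the UGT1A3 pair, with 1 array each, the differences are values of 2 arrays with no test. Most differences were small: 22 of 36 read lower and 13 higher, and of the 11620 genes compared 46.0% read lower and 52.1% higher. The median difference was -0.05 for the cytosolic and -0.10 for the mitochondrial enzymes, beside 0.02 over all genes. The order of the compartments turned with the choice of probe sets: with the mean of all probe sets the medians were -0.035 and -0.014, and without probe sets whose probes can match other genes -0.036 and -0.022. On the probe set brightest in these 2 arrays, only 3 members differed by 0.32 or more on the log2 scale, the size used here for a call. HARS2 went from log2 7.84 to 8.27 (0.43), and 11.1% of all genes were higher by 0.32 or more. FARSA went from 8.93 to 8.56 (-0.37) and FARSB from 9.71 to 9.35 (-0.36), and 8.02% of all genes were lower by 0.32 or more. Counts of 1 and 2 of 36 do not exceed those shares. The FARSB probe sets all read lower, from -0.42 to -0.30, so both subunits of the phenylalanyl enzyme were lower in this array.

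CARS1, the enzyme that fell most after USF1 knockdown, read higher in the UGT1A3 knockdown array on all 3 probe sets, by 0.23 to 0.36. MARS2 read lower in both knockdowns, at -0.28 in the UGT1A3 pair (-0.48 to -0.28 over its probe sets). HARS1 and HARS2 are divergent neighbours whose RefSeq starts lie 85 bases apart on chromosome 5, and both read higher in this pair, by 0.24 and 0.43, and fell after USF1 knockdown. The HARS1 probe sets ran from 0.01 to 0.24 in the pair. Of the 10 genes for uncharged tRNA sensing and the ATF4 response 8 read higher in the UGT1A3 knockdown array, with a median of 0.19, against 52.1% of all genes. DDIT3 differed most, at 0.48, ATF4 itself by 0.009, and GCN1 (-0.06) and EIF2S1 (-0.10) read lower.

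**Figure D4:**
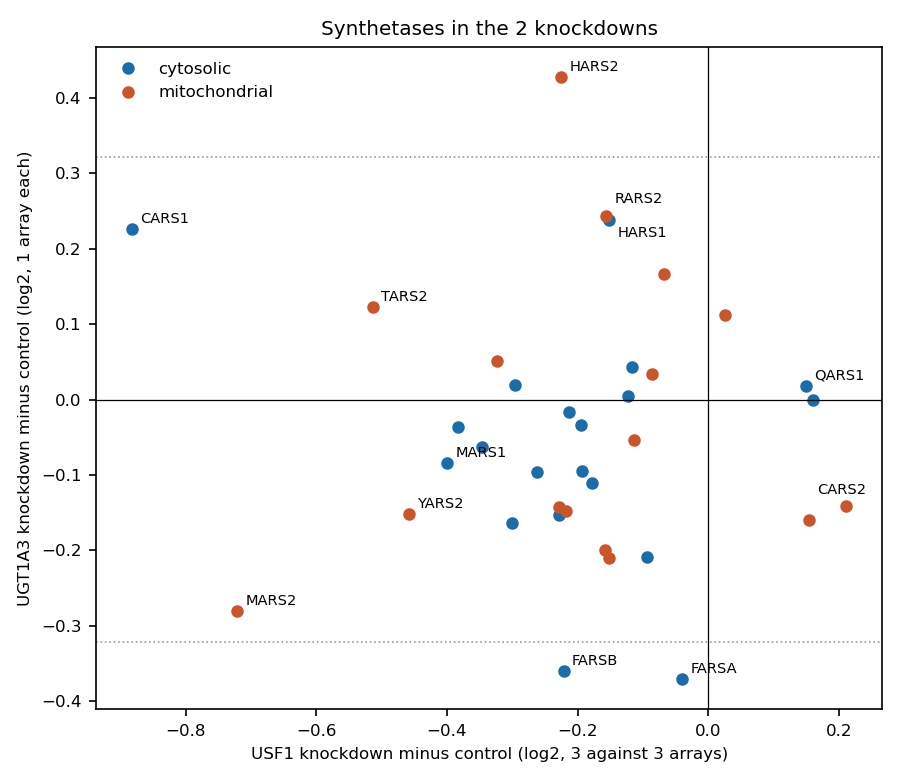
Each synthetase's change after USF1 knockdown (x axis, log2, 3 arrays against 3) against its difference in the UGT1A3 pair (y axis, log2, 1 array each), with dotted lines at a log2 difference of 0.32 either way. Each axis shows the probe set brightest in its own arrays, a different one in 6 members. CARS1 lies far left and above 0, MARS2 far left and below 0, and only HARS2, FARSA and FARSB lie outside the dotted lines. The CARS1 probe set of the x axis differed by 0.36 in the UGT1A3 pair, more than the one plotted on the y axis.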

How the data were processed

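RNA of H1299 cells was hybridised to 8 one-colour arrays. Intensities were deposited on what their range shows to be a log2 scale, with 1 value per probe set and array. The submitters' processing notes name MAS5 without its role, and the scaling between arrays was not stated. Groups came from the labels. The 102 control probe sets and probe sets with several symbols were left out, gene names came from the platform annotation, and each gene was represented by the probe set brightest on average in that comparison. Genes dimmer than the 40th percentile of all probe set means (log2 5.63 in the USF1 set, 4.76 in the UGT1A3 set) were left out as dim. The USF1 comparison was fitted in R 4.3.3 by lmFit and eBayes of limma 3.58.1, two-sided, with Benjamini-Hochberg adjustment over all 11448 tested genes at 0.05. The fit was tested on simulated data. Pairs were tested by exact permutation of arrays. The named genes were all members, and up to 4 related genes per list that passed, by smallest adjusted p. Promoters were searched with Python 3.11.15. The members and lists were chosen with earlier results of these data known. Alternatives were other scalings, dim limits, offsets, probe set rules, variance models, the replicate block and leaving out each array.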

Additional observations from a re-analysis of the deposited data

Results flagged for a closer look

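Outside the main measurement, 2 probe sets annotated to both GTF2H4 and VARS2 read higher in every USF1 knockdown array than in every control, by 0.21 and 0.28 on the log2 scale. The 4 probe sets of VARS2 alone read lower, by 0.05 to 0.20, and which of the 2 genes the shared probe sets report was not tested.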

How the results depend on the processing

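No synthetase that passed changed direction under any of the alternatives run, and 23 of the 29 that passed, 21 of them falls, did so under each alternative that could be run for them. YARS1, 1 of the 23, has only a probe set whose probes can match other genes and was not run without such probe sets. Leaving out 1 USF1 array at a time gave 17 to 18 cytosolic and 7 to 11 mitochondrial enzymes past the threshold. The mitochondrial count went both ways under other settings. It rose to 14 when probe sets were averaged or an intensity trend was fitted, and to 13 when genes dimmer than the 60th percentile were dropped. It fell to 8 with no dim limit. It was 9 when every probe set was tested, and 9 without probe sets whose probes can match other genes. The share of all tested genes that fell also varied. It was 18.7% in the main fit, 25.7% at the 60th percentile limit, 21.6% with the trend and 9.09% with no dim limit. The replicate number as a block left 17 cytosolic and 10 mitochondrial enzymes past the threshold. The replicate numbers gave no clear pairing of the arrays: deviations of same-numbered arrays correlated at -0.10, 0.20 and 0.09. Control 1 correlated best with knockdown 3 (0.19), control 2 with knockdown 2 (0.20) and control 3 with knockdown 3 (0.09). With 3 arrays per group, such weak correlations cannot decide whether the arrays were paired. KARS1, LARS2, EEF1A1 and EEF1G lost their calls under the block. Without probe sets whose probes can match other genes, which was tried after the data had been seen, the median shift within pairs was -0.11 and the mitochondrial median in the UGT1A3 pair was -0.022. With the mean of all probe sets that UGT1A3 median was -0.014. The count of genes past the threshold ranged from 3644 to 5364, against 4657 of 11448 tested in the main fit. The 3644 came both with no dim limit, of 18132 tested, and without control 1, of 11458. The 5364 came with an intensity trend, of 11448. At the 60th percentile limit 4619 of 8394 passed, so counts and shares did not move together. Signal over background limits AARS2, PARS2, SARS2 and TARS3, the dimmest members.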

Other observations

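The probe set annotated to both HARS1 and ATP13A5 read log2 14.55 in the USF1 controls and 14.58 after knockdown, with overlapping arrays. The one shared by EMX1 and TARS2 differed by -0.48, near the -0.51 of TARS2 itself, with all knockdown arrays below the controls.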
